A study of Mus musculus with 9 samples.

Results

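The genes that mark hormone-sensing luminal cells of the mouse mammary gland were followed through aggregates of mixed, luminal and basal cells. The set was chosen by gene name and holds the steroid and prolactin receptors Esr1, Pgr and Prlr, the oestrogen receptor partners and target Foxa1, Cited1 and Greb1, the secreted signals Tnfsf11 and Wnt4, and the surface markers Prom1 and Ly6a. All 10 names were found among the 54456 gene names of the count table, and 9 of them were among the 18051 genes with enough counts to be tested, the exception being Tnfsf11. Mammary epithelial cells of wild-type mice were purified by flow cytometry and aggregated as a 50% mixture of luminal and basal cells (mixed), as luminal cells alone or as basal cells alone, with 3 libraries of each kind. All 9 aggregates were grown in Matrigel beside heparin sulfate beads soaked in FGF10, a growth factor that draws mammary epithelium into branches, and were collected at 56 h by the treatment label and 55 h by the titles. The listed components of the medium include no oestrogen, progesterone or prolactin, so the comparisons are between cell mixtures and not between hormone treatments. Strain, age and the sorting antibodies are not given by the labels.

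In the mammary gland, oestrogen, progesterone and prolactin act first on a subset of luminal cells that carry their receptors, the hormone-sensing or mature luminal cells. These cells pass the signal on through secreted factors such as amphiregulin, RANKL (encoded by Tnfsf11) and WNT4, which act on neighbouring luminal progenitors and basal cells. Other luminal cells, the progenitors, carry little oestrogen receptor and give rise to the milk-producing alveolar cells, and basal cells form the contractile outer layer of the duct.

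Libraries held between 15585324 and 19164405 counts, at which 3 counts correspond to 0.152 to 0.187 CPM, the count scaled to library size after TMM normalisation. The labels do not say that the 3 libraries of a kind came from separate animals or cultures, so the p-values measure the spread between these libraries, which may be technical. Pan-luminal markers summed to between 7860 and 9685 CPM in mixed, between 6057 and 9238 CPM in luminal and between 2959 and 3360 CPM in basal aggregates. Of these, Krt19 alone averaged 4537 CPM in mixed, 1336 CPM in luminal and 856 CPM in basal aggregates. By edgeR's quasi-likelihood test (adjusted p under 0.05), 1 of the 7 was higher and 3 lower in mixed than in luminal aggregates (median log2 difference -0.48). Of all tested genes, 29.4% were called in that contrast. Basal markers summed to 5997 to 7111, 1399 to 2749 and 9157 to 10440 CPM in mixed, luminal and basal aggregates. In luminal aggregates Krt14 averaged 2114 CPM and the other basal markers 0.543 (Mylk) to 88.6 CPM (Oxtr). The library names carry 3 code series, which hold the mixed libraries with basal 2, luminal 1 with basal 1 and 3, and luminal 2 and 3 alone. The labels do not say what the codes stand for, and mixed and luminal libraries never share one. An alternative fit with a term for these codes, called the code-series fit below, therefore sets luminal 1 beside basal 1 and 3, mixed beside basal 2 alone, and mixed beside luminal only by way of basal libraries. Over all tested genes, log2 CPM of basal 2 correlated at 0.927 with basal 1 and 0.936 with basal 3. Basal 1 and 3 correlated at 0.986. With mixed 1, 2 and 3, basal 2 correlated at 0.926, 0.915 and 0.903, and basal 1 at 0.890, 0.889 and 0.856. Luminal 1 correlated at 0.9695 and 0.9702 with luminal 2 and 3, which correlated at 0.966. Whether the codes bear on this was not tested. In bulk RNA, fewer hormone-sensing cells and less RNA per cell cannot be told apart.

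Windows of 250 bases before an annotated transcript start were available from RefSeq (build GRCm38.p6) for 9 of the 10 genes, as 16 windows, and were searched on both strands for letters bound by the receptors and factors named here. The full oestrogen response element (GGTCA, 3 bases of any kind, TGACC) was in 0 of the 16 windows, against 0.0639% of 32851 windows of the same length over all genes, and its single arm GGTCA was in 5 of the 16, against 35.2% of all windows. The forkhead motif TGTTTAC, of the kind bound by FOXA1, was in 2 windows (3.17% of all windows), and TTCNNNGAA, bound by STAT5 downstream of the prolactin receptor, was in 2 (7.02% of all windows). The element of the progesterone and glucocorticoid receptors (GNACA, 3 bases of any kind, TGTNC) and AGATAA, bound by GATA factors, were in 0 of the 16 (0.387% and 9.99% of all windows). GGTCA is also an arm of the full element, and no match says only that these letters are not in this window. The windows of Greb1 (chr12:16800887-16801136, minus strand), Prlr (chr15:10223656-10223905, plus strand), Cited1 (chrX:102252182-102252431, minus strand) and Foxa1 (chr12:57546112-57546361, minus strand) each hold a match and are shown. Further windows with a match, of Esr1, Cited1 and Greb1, are not shown. They run 5′ to 3′ along the gene, with matches on either strand in capitals, and the count data do not tell which start was used.
Greb1: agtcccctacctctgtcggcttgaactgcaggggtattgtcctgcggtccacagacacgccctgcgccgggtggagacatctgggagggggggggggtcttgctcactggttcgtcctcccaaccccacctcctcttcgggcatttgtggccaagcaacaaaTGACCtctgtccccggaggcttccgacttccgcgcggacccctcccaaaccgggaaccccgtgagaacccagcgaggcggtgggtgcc
Prlr: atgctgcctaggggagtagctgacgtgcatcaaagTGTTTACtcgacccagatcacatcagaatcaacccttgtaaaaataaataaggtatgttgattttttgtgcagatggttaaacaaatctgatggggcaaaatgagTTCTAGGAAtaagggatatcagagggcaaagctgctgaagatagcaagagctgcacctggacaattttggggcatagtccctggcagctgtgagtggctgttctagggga
Cited1: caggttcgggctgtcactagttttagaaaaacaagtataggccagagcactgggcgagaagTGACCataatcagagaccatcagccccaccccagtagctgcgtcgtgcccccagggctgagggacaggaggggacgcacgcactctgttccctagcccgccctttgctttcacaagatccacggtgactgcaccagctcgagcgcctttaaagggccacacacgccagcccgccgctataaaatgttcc
Foxa1: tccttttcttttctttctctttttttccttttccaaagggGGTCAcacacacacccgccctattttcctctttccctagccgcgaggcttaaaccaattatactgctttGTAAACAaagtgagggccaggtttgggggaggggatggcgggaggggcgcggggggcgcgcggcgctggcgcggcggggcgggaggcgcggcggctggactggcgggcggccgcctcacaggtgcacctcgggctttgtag
Counted from the transcript start, the GGTCA arm, read as TGACC on the strand shown, begins at -88 in Greb1 and -189 in Cited1, and as GGTCA at -210 in Foxa1. The forkhead letters begin at -215 in Prlr and, read as GTAAACA, at -141 in Foxa1, and the STAT letters begin at -110 in Prlr. A match in a window describes its letters and not a bound site.

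All 3 hormone receptors were higher in mixed and in luminal aggregates than in basal aggregates, and none of them passed the test between mixed and luminal aggregates. Esr1, the oestrogen receptor alpha gene (chromosome 10, 4561593 to 4955614, plus strand, on mm39 as all gene positions here), had 57.1, 67.6 and 59.1 CPM in mixed, 43.2, 56.7 and 73.6 CPM in luminal, and 16.5, 6.12 and 11.8 CPM in basal aggregates. Every mixed and luminal library lay above every basal library, and the mixed values fell inside the luminal range. Esr1 was 5.32-fold higher in mixed than in basal aggregates (log2 difference 2.41 ± 0.33 SE, adjusted p = 0.000802) and 5.02-fold higher in luminal than in basal aggregates (2.33 ± 0.32, adjusted p = 0.000241). These and the adjusted p-values below come from edgeR's quasi-likelihood test with Benjamini-Hochberg adjustment over all tested genes, n = 3 per group. Its log2 difference between mixed and luminal aggregates was 0.08 (95% interval -0.59 to 0.75, adjusted p = 0.859).

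Pgr encodes the progesterone receptor and is itself a classical oestrogen target (chromosome 9, 8899834 to 8968612, plus strand). It had 138, 132 and 93.1 CPM in mixed, 58.1, 103 and 91.1 CPM in luminal, and 42.9, 44.3 and 45.5 CPM in basal aggregates. The basal libraries were the most alike of the 3 kinds, and the lowest mixed library was below the highest luminal one. Pgr was 2.73-fold higher in mixed than in basal (log2 1.45 ± 0.23, adjusted p = 0.00207) and 1.90-fold higher in luminal than in basal aggregates (0.93 ± 0.23, adjusted p = 0.00961). The call of luminal against basal ended in the code-series fit (log2 0.39, adjusted p = 0.42). Between mixed and luminal aggregates it differed by 0.53 ± 0.22 on the log2 scale, which did not pass (adjusted p = 0.0971).

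Prlr encodes the prolactin receptor, through which milk production is driven (chromosome 15, 10177324 to 10349266, plus strand). It had 624, 623 and 543 CPM in mixed, 429, 698 and 590.2 CPM in luminal, and 80.4, 56.9 and 78.1 CPM in basal aggregates. All mixed libraries fell within the luminal range, and all were far above the basal libraries. Prlr was 8.31-fold higher in mixed than in basal (log2 3.06 ± 0.23, adjusted p = 1.56e-05) and 7.97-fold higher in luminal than in basal aggregates (2.995 ± 0.22, adjusted p = 2.38e-06). Its log2 difference between mixed and luminal aggregates was 0.06 (95% interval -0.39 to 0.52, adjusted p = 0.85).

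**Figure D1:**
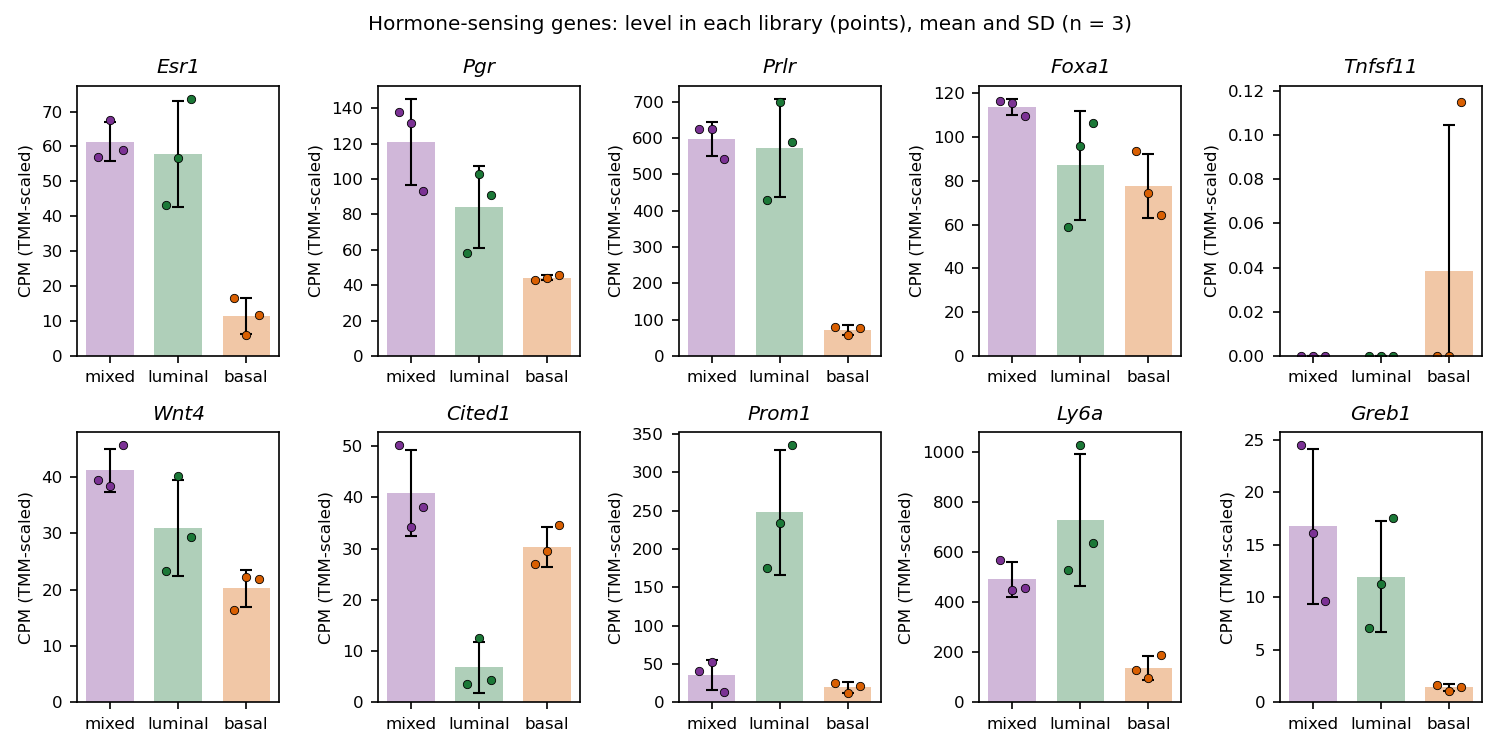
Expression of the 10 hormone-sensing luminal genes in CPM (y axis of each panel, from 0) for mixed, luminal and basal aggregates. Points are libraries, bars are means and error bars are SD (n = 3). Esr1, Prlr and Greb1 are high in mixed and luminal and low in basal libraries, Cited1 is low in luminal libraries alone, and Prom1 is high in luminal libraries alone.

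The genes that work with or under the oestrogen receptor did not follow a single pattern. Greb1, an oestrogen target whose protein binds the receptor as a cofactor, separated basal aggregates from the others, Cited1 separated luminal aggregates from the others, and Foxa1 passed no contrast. Greb1 (chromosome 12, 16720616 to 16850887, minus strand) had 24.5, 16.1 and 9.69 CPM in mixed, 7.07, 11.3 and 17.6 CPM in luminal, and 1.67, 1.10 and 1.49 CPM in basal aggregates. The basal values rest on 33, 20 and 26 counts. The mixed and luminal libraries overlapped over most of their range, and both lay above all basal libraries. It was 11.7-fold higher in mixed than in basal (log2 3.55 ± 0.47, adjusted p = 0.00067) and 8.37-fold higher in luminal than in basal aggregates (3.06 ± 0.46, adjusted p = 0.000399), with 0.49 ± 0.41 between mixed and luminal aggregates (adjusted p = 0.395). Of its exon bases, 7.68% are shared with Gm48140, and the authors' counting did not use strand.

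Cited1, a transcriptional co-activator that binds the oestrogen receptor and marks hormone-sensing cells (X chromosome, 101290987 to 101295787, minus strand), had 50.1, 34.1 and 38.2 CPM in mixed, 3.51, 12.6 and 4.42 CPM in luminal, and 27.0, 29.5 and 34.6 CPM in basal aggregates. Luminal aggregates had the lowest values with no overlap, and the mixed and basal ranges overlapped. Cited1 was 5.97-fold higher in mixed than in luminal aggregates (log2 2.58 ± 0.42, adjusted p = 0.00129) and 4.44-fold lower in luminal than in basal aggregates (-2.15 ± 0.41, adjusted p = 0.00216), and its mixed minus basal difference was 0.43 ± 0.39 (adjusted p = 0.495). The data thus go against Cited1 as a luminal marker in these aggregates, where 6.84 ± 4.996 CPM were found with luminal cells alone and 30.4 ± 3.89 CPM with basal cells alone (SD, n = 3 each). Both calls held in the code-series fit (log2 3.60, adjusted p = 0.0473 for mixed against luminal, and -3.13, adjusted p = 0.00824 for luminal against basal).

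Foxa1 encodes a pioneer factor that opens chromatin for the oestrogen receptor (chromosome 12, 57587414 to 57593702, minus strand). It had 116, 115 and 109.7 CPM in mixed, 59.1, 95.8 and 106 CPM in luminal, and 93.5, 74.6 and 64.6 CPM in basal aggregates. The mixed libraries lay above all others and within a narrow range, while luminal and basal libraries overlapped. Its log2 difference was 0.39 ± 0.22 between mixed and luminal (adjusted p = 0.207), 0.55 ± 0.22 between mixed and basal (adjusted p = 0.121) and 0.17 ± 0.22 between luminal and basal aggregates (adjusted p = 0.642), where the sign turned in the code-series fit (-0.42, adjusted p = 0.356). In basal aggregates Foxa1 stood at 23.3 CPM per kilobase of exon and Esr1 at 0.842. The per-kilobase ratio of Esr1 to Foxa1 was 0.119, 0.143 and 0.131 in mixed, 0.178, 0.144 and 0.168 in luminal, and 0.0431, 0.0200 and 0.0447 in basal aggregates.

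Of the secreted signals, the RANKL gene was at or near 0 throughout and Wnt4 was measured in all libraries. Tnfsf11 (chromosome 14, 78514885 to 78545483, minus strand), through which progesterone-responsive cells drive their neighbours, had 0 counts in 8 libraries and 2 counts in basal 3 (0.115 CPM), below the floor of 3 counts. It was not detectable at this depth in mixed or luminal aggregates. Wnt4, a secreted WNT ligand induced by progesterone (chromosome 4, 137004800 to 137027037, plus strand), had 39.5, 38.5 and 45.6 CPM in mixed, 23.4, 40.2 and 29.4 CPM in luminal, and 16.4, 22.3 and 22.0 CPM in basal aggregates. Mixed and luminal libraries each lay above all basal libraries, and the mixed and luminal ranges overlapped. Wnt4 was 2.04-fold higher in mixed than in basal aggregates (log2 1.03 ± 0.23, adjusted p = 0.0148), a call that ended without basal 1 (0.90, adjusted p = 0.0651), without basal 3 (1.08, adjusted p = 0.0535) and in the code-series fit (0.88, adjusted p = 0.155). The luminal minus basal difference of 0.62 ± 0.23 did not pass (adjusted p = 0.0699), but did by DESeq2 (0.62, adjusted p = 0.0419) and without luminal 1 (0.79, adjusted p = 0.0397). Between mixed and luminal aggregates the difference was 0.41 ± 0.23 (adjusted p = 0.198).

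The surface proteins by which hormone-sensing cells are sorted gave unlike patterns. Prom1 encodes CD133, a membrane glycoprotein (chromosome 5, 44150962 to 44259374, minus strand), and had 40.6, 52.4 and 13.9 CPM in mixed, 175, 233 and 335 CPM in luminal, and 25.6, 12.1 and 21.2 CPM in basal aggregates. The luminal libraries stood above all others, and mixed 3 lay inside the basal range. Prom1 was 6.95-fold lower in mixed than in luminal aggregates (log2 -2.80 ± 0.45, adjusted p = 0.00124) and 12.6-fold higher in luminal than in basal aggregates (3.66 ± 0.47, adjusted p = 0.000126). In the code-series fit the mixed minus luminal difference was -1.35 and its call ended (adjusted p = 0.575), while luminal minus basal was 2.90 (adjusted p = 0.00742). The mixed minus basal difference of 0.86 ± 0.43 did not pass (adjusted p = 0.207), but did without mixed 3 (1.23, adjusted p = 0.0473) and with no filter on low counts (0.83, adjusted p = 0.00241). Of its exon bases, 5.91% are shared with Gm16401.

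Ly6a encodes SCA1, a membrane-anchored protein of the Ly6 family that is also carried by endothelial and blood cells (chromosome 15, 74866726 to 74869880, minus strand). It had 572, 448 and 457 CPM in mixed, 528, 1029 and 636 CPM in luminal, and 129, 97.3 and 189 CPM in basal aggregates. Mixed and luminal libraries overlapped, and both lay above the basal libraries. Ly6a was 3.56-fold higher in mixed than in basal (log2 1.83 ± 0.29, adjusted p = 0.00233) and 5.28-fold higher in luminal than in basal aggregates (2.40 ± 0.30, adjusted p = 0.000102), and its mixed minus luminal difference was -0.57 ± 0.28 (adjusted p = 0.151, and 0.0223 with no filter on low counts). The sign of that difference turned in the code-series fit (0.61, adjusted p = 0.695). The Ly6 genes are close copies of one another, and multi-mapping reads were left out by the authors' counting, so its level is uncertain.

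Against basal aggregates, 6 of the 9 tested genes rose and 0 fell in mixed aggregates, where 13.7% of all tested genes were called, 6.39% as higher and 7.33% as lower. Those 6 were Esr1, Pgr, Prlr, Wnt4, Ly6a and Greb1, and all 9 differences were positive, with a median log2 difference of 1.45 against -0.07 over all tested genes. In luminal against basal aggregates 6 were higher (Esr1, Pgr, Prlr, Prom1, Ly6a and Greb1) and 1 lower (Cited1), where 27.1% of all tested genes were called, and the median was 2.33 against -0.02. In mixed against luminal aggregates 1 was higher (Cited1) and 1 lower (Prom1), where 29.4% of all tested genes were called, and the median was 0.39 against -0.05. The groups did not overlap for 7, 8 and 3 of the 9 genes in mixed against basal, luminal against basal and mixed against luminal aggregates, where 33.1%, 46.6% and 51.1% of all tested genes did not. Of the pan-luminal markers, 7 of 7 were called higher in mixed and 6 of 7 in luminal than in basal aggregates. Of the luminal progenitor markers, 5 of 6 were called higher in each of these contrasts. Calls against basal aggregates were thus not particular to the hormone-sensing genes. Each pair of contrasts shares a group of libraries.

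**Figure D2:**
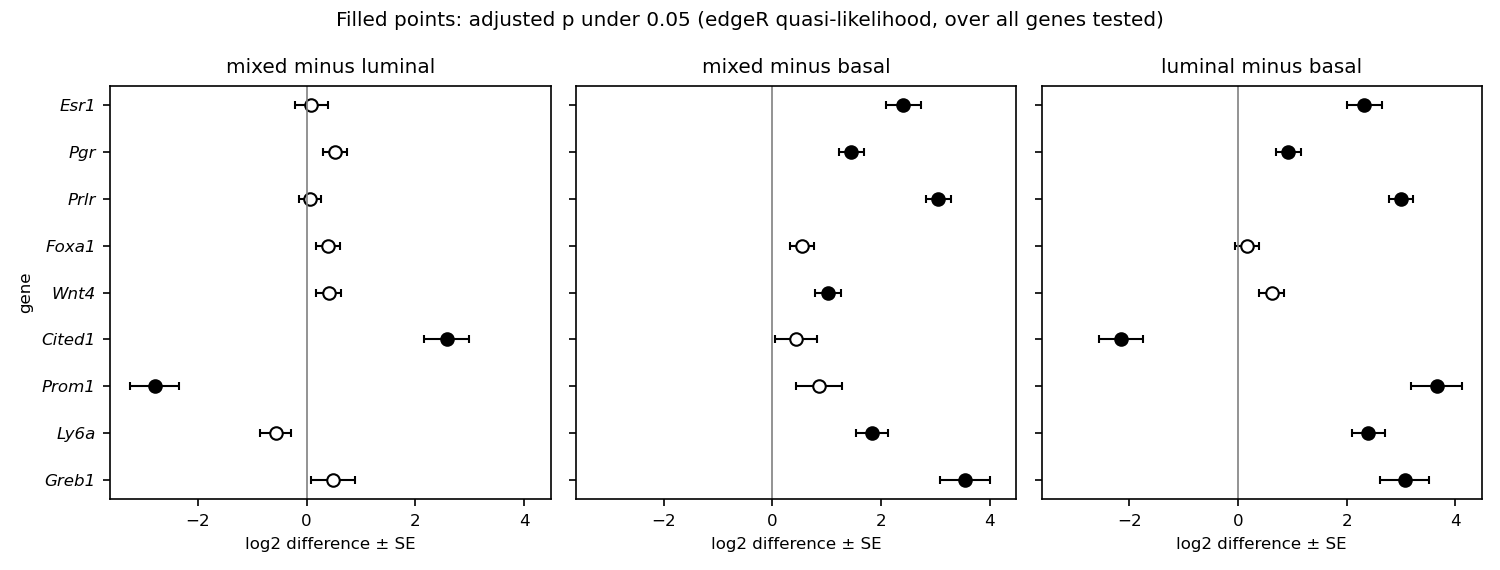
Fitted log2 differences of the 9 tested genes (x axis, error bars SE) for mixed minus luminal, mixed minus basal and luminal minus basal aggregates, with filled points for an adjusted p under 0.05. Esr1, Pgr, Prlr, Ly6a and Greb1 are filled to the right of 0 in both contrasts with basal aggregates, and Cited1 and Prom1 are the filled points of mixed minus luminal.

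In the code-series fit, Esr1, Prlr, Ly6a and Greb1 kept both calls against basal aggregates. In mixed against basal 2 the log2 differences were 3.32 for Esr1 (adjusted p = 0.00105), 1.45 for Pgr (0.0159), 3.39 for Prlr (0.000162), 2.34 for Ly6a (0.0061) and 3.92 for Greb1 (0.014). In luminal 1 against basal 1 and 3 they were 1.60 for Esr1 (adjusted p = 0.0042), 2.44 for Prlr (4.72e-05), 1.73 for Ly6a (0.005) and 2.15 for Greb1 (0.0338). For mixed against luminal aggregates, reached only through basal libraries, the differences were 1.72 for Esr1 (adjusted p = 0.0794), 0.96 for Prlr (0.135) and 1.77 for Greb1 (0.468), and none of these passed.

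The mixed aggregates held more of these RNAs than the midpoint of luminal and basal aggregates. The ratio of the mixed mean to the mean of the luminal and basal means was 1.77 for Esr1 (1.65 to 1.95 over the 3 mixed libraries), 1.89 for Pgr (1.45 to 2.15), 1.85 for Prlr (1.69 to 1.94) and 2.50 for Greb1 (1.45 to 3.65). It was 1.38 for Foxa1 (1.33 to 1.41), 1.61 for Wnt4 (1.5 to 1.78), 2.20 for Cited1 (1.84 to 2.70) and 1.13 for Ly6a (1.03 to 1.32), whereas Prom1 was at 0.267 (0.104 to 0.392). All 3 mixed libraries were above the midpoint for 8 of the 9 genes, against 26.8% of all tested genes and 21.5% of the 1516 genes called at least 2-fold higher in luminal than in basal aggregates (luminal-high genes). All 3 were also above it for 61.5% of the 13 tested oestrogen-responsive genes followed below, 57.1% of pan-luminal, 50% of luminal progenitor and 42.9% of basal markers. The shares were 44.4% of prolactin receptor signalling genes and 27.8% of receptor partners and co-regulators. Foxa1, Wnt4, Pgr and Cited1 are not among the luminal-high genes. The members and lists were chosen with earlier results of these data known, so these shares are a description. The median ratio was 1.77 over the 9 genes, 0.929 over all tested genes (quartiles 0.637 and 1.28) and 0.824 over the luminal-high genes. It was 1.41 over the oestrogen-responsive genes, 1.16 over the pan-luminal markers, 1.48 over the luminal progenitor markers and 1.00 over the basal markers. A ratio of CPM assumes equal RNA from both kinds of cells, which was not measured, and the share of each kind at collection was not measured either. All 3 mixed libraries share a code series with basal 2 and with no luminal library. The ratios therefore cannot be told apart from the codes. Luminal 1 was the lowest luminal library for all 9 genes, as it was for 29.1% of all tested and 39.2% of luminal-high genes. Basal 2 was the lowest basal library for 5 of the 9, and for 45% of all tested and 55.6% of luminal-high genes. Without luminal 1 the ratios were 1.60 for Esr1, 1.71 for Pgr, 1.67 for Prlr, 2.11 for Greb1, 1.01 for Ly6a and 0.235 for Prom1. Without luminal 1 or without luminal 3, Ly6a no longer had all 3 mixed libraries above the midpoint, which left 7 genes.

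Although 7 of the 9 genes had fitted values above both pure kinds in the mixed aggregates, 0 were called above or below both, where 0.0499% of all tested genes were called above and 0.0388% below. The share of all tested genes with fitted values above both was not counted. Esr1 and Prlr fell between the pure kinds without luminal 1, as Esr1 did without mixed 2. By edgeR's quasi-likelihood test, taking the larger p-value of both contrasts, Pgr had the lowest adjusted p of the 9 genes (0.391). Of these 9 genes, 1 had an unadjusted p under 0.05, and DESeq2 called 0 of them.

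**Figure D3:**
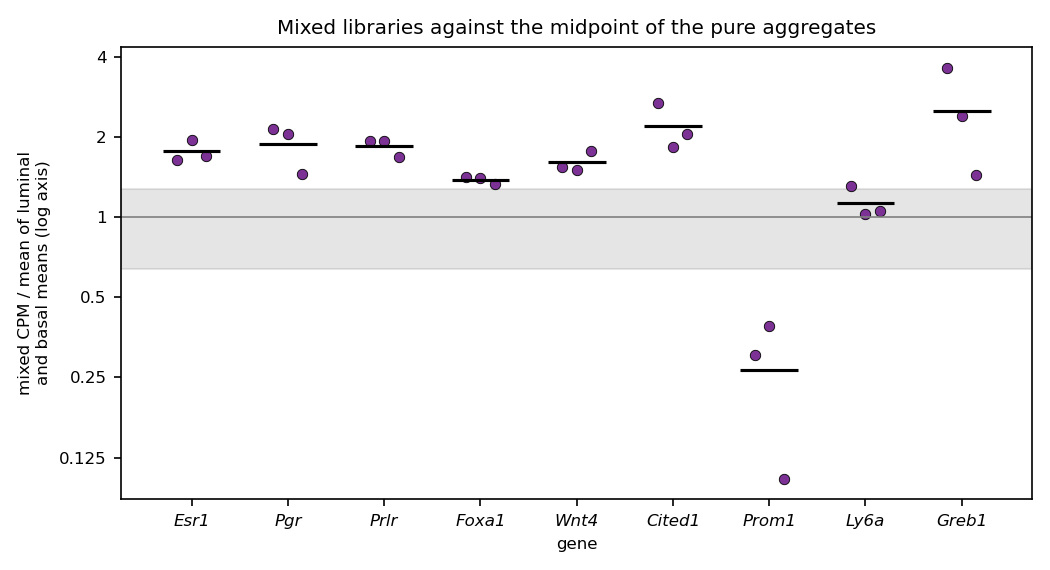
Mixed libraries divided by the midpoint of the luminal and basal means (log axis) for the 9 tested genes, with points for libraries and a grey band for the quartiles over all tested genes (0.637 to 1.28). All genes but Prom1 have their 3 mixed libraries above 1.

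Per kilobase of exon, the order of levels changed between the kinds of aggregate. In mixed aggregates Ly6a came first at 409 CPM per kb, followed by Prlr at 38.9, Foxa1 at 34.2, Cited1 at 23.3, Pgr at 14.2, Wnt4 at 9.82, Prom1 at 4.97, Esr1 at 4.49 and Greb1 at 1.75. In luminal aggregates Ly6a at 607 and Prlr at 37.3 CPM per kb were followed by Prom1 at 34.5 and Foxa1 at 26.2, while Cited1 stood at 3.90. In basal aggregates Ly6a at 115 CPM per kb was followed by Foxa1 at 23.3 and Cited1 at 17.3, with Prlr at 4.68, Esr1 at 0.842 and Greb1 at 0.149. Cited1 and Prom1 were the pair whose profiles over the 9 libraries lay farthest apart, with a mean absolute difference of 2.61 on the centred log2 CPM scale. Their per-kilobase ratio, Cited1 over Prom1, was 5.05, 2.67 and 11.2 in mixed, 0.0821, 0.221 and 0.0539 in luminal, and 4.32, 9.95 and 6.67 in basal aggregates. The closest pairs were Pgr with Wnt4 at 0.247, Foxa1 with Wnt4 at 0.27 and Esr1 with Prlr at 0.296. By the same measure over 10617 genes, the genes most like Esr1 were Ckmt1 (0.243), Osgin2 (0.243) and Plekha6 (0.248), and those most like Pgr were Gipc2 (0.176), Zfp948 (0.182) and Gm16485 (0.186). Those most like Greb1 were Tlcd4 (0.264), Padi2 (0.264) and Rasd1 (0.31), and those most like Cited1 were Tk1 (0.312), Gm15452 (0.317) and Gas2l3 (0.352). The libraries fall into 3 groups, so likeness over them is a description.

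The wider pathway was followed in lists of other genes. Over all tested genes, 13.7% were called in mixed against basal, 27.1% in luminal against basal and 29.4% in mixed against luminal aggregates. In the code-series fit the genes called numbered 853, 2507 and 491 of 18051 in the same order. Among 18 partners and co-regulators of the steroid receptors, 5 rose and 2 fell in mixed relative to basal aggregates (median log2 difference 0.37 against -0.07 over all tested genes). In luminal relative to basal aggregates 8 rose and 2 fell (0.32 against -0.02). In mixed relative to luminal aggregates 2 rose and 4 fell (-0.05 against -0.05). Of the 18 genes, 38.9%, 55.6% and 33.3% were called in these contrasts, in the same order. In the code-series fit 3 rose and 2 fell in mixed against basal, 5 rose and 1 fell in luminal against basal, and 0 rose and 2 fell in mixed against luminal aggregates. Xbp1, a secretory transcription factor that is also an oestrogen target, averaged 505 CPM in mixed, 2059 CPM in luminal and 170 CPM in basal aggregates. It was higher in mixed than in basal (log2 1.57 ± 0.17, adjusted p = 0.00019) and lower in mixed than in luminal aggregates (-2.03 ± 0.17, adjusted p = 1.35e-05). Gper1, a membrane oestrogen receptor, averaged 14.4 CPM in mixed, 44.6 CPM in luminal and 0.958 CPM in basal aggregates, and passed all 3 contrasts in the same order as Xbp1 (mixed minus basal 3.91 ± 0.47, adjusted p = 0.00035). Tfap2c, which encodes AP-2 gamma, averaged 74.8 CPM in mixed, 112 CPM in luminal and 169 CPM in basal aggregates. It was lower in mixed than in basal aggregates (-1.18 ± 0.17, adjusted p = 0.00104). It was also lower in mixed than in luminal aggregates (-0.58, adjusted p = 0.0219), a call that ended in the code-series fit (-0.42). Gata3, the luminal transcription factor, was chosen for the plot of pathway genes after its values were seen and averaged 377 ± 39.8 CPM in mixed, 357 ± 24.7 CPM in luminal and 142 ± 22.5 CPM in basal aggregates.

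Of 13 tested oestrogen-responsive genes other than the members, 3 rose and 1 fell in mixed relative to basal aggregates (median log2 difference 0.76). In luminal relative to basal aggregates 5 rose and 3 fell (0.48), and in mixed relative to luminal aggregates 3 rose and 1 fell (0.50). The shares called in this order were 30.8%, 61.5% and 30.8%, against 13.7%, 27.1% and 29.4% of all tested genes. The code-series fit had 2 rising and 0 falling in mixed against basal, 3 and 2 in luminal against basal, and 2 and 0 in mixed against luminal aggregates. Areg, which encodes amphiregulin and relays oestrogen to neighbouring cells, averaged 209 CPM in mixed, 162 CPM in luminal and 48.2 CPM in basal aggregates. It was higher in mixed than in basal (2.12 ± 0.28, adjusted p = 0.000772) and in luminal than in basal aggregates (1.75 ± 0.28, adjusted p = 0.000664). Stc2, a secreted glycoprotein, moved the same way, with 247 CPM in mixed, 232 CPM in luminal and 60.1 CPM in basal aggregates (mixed minus basal 2.04 ± 0.34, adjusted p = 0.00302). Ccnd1, the cyclin D1 gene, had another order, with 193 CPM in mixed, 16.4 CPM in luminal and 212 CPM in basal aggregates. It rose in mixed relative to luminal aggregates (3.56 ± 0.35, adjusted p = 3.71e-05) and fell in luminal relative to basal aggregates (-3.70 ± 0.35, adjusted p = 1.36e-05). Of its exon bases, 23.4% are shared with another gene name. Igfbp4, a binding protein for insulin-like growth factors, likewise rose in mixed relative to luminal aggregates (1.19 ± 0.21, adjusted p = 0.00241) and fell in luminal relative to basal aggregates (-1.89 ± 0.22, adjusted p = 5.43e-05). The first of these calls ended in the code-series fit (adjusted p = 0.6).

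Among 12 tested genes of the paracrine relay, 1 passed in mixed against basal aggregates, Areg, which rose (median log2 difference of the list -0.08). In luminal relative to basal aggregates 3 rose and 1 fell (0.24), and in mixed relative to luminal aggregates 2 rose and 2 fell (0.16). The shares called in this order were 8.33%, 33.3% and 33.3%, against 13.7%, 27.1% and 29.4% of all tested genes. By the code-series fit 1 rose and 0 fell in mixed against basal, 2 rose and 1 fell in luminal against basal, and 0 rose and 1 fell in mixed against luminal aggregates. Tnfrsf11b, which encodes the RANKL decoy receptor osteoprotegerin, averaged 3.08 CPM in mixed, 11.3 CPM in luminal and 3.93 CPM in basal aggregates. It was lower in mixed than in luminal aggregates (-1.87 ± 0.44, adjusted p = 0.00992), a call that ended in the code-series fit (adjusted p = 0.779). The RANK receptor gene Tnfrsf11a, plotted after its values were seen, averaged 31.0 ± 6.05 CPM in mixed, 47.8 ± 13.4 CPM in luminal and 24.1 ± 4.99 CPM in basal aggregates, so the receptor RNA was measured in all 3 kinds while the RNA of its ligand, Tnfsf11, was at or near 0. Egfr, the amphiregulin receptor gene, was higher in mixed than in luminal aggregates (0.71 ± 0.17, adjusted p = 0.0113). Adam17, whose protease releases amphiregulin, was lower (-0.85 ± 0.24, adjusted p = 0.022). Both calls ended in the code-series fit (adjusted p = 0.435 for Egfr and 0.834 for Adam17). Id4, a basal cell regulator linked to this relay, averaged 312 CPM in mixed, 28.5 CPM in luminal and 410.0 CPM in basal aggregates (luminal minus basal -3.84 ± 0.52, adjusted p = 0.000204).

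Downstream of the prolactin receptor, 4 of 9 tested genes passed in mixed against basal aggregates and all 4 rose (median log2 difference of the list 0.60). In luminal relative to basal aggregates 7 rose and 1 fell (1.23), and in mixed relative to luminal aggregates 1 rose and 1 fell (-0.59). The shares called in this order were 44.4%, 88.9% and 22.2%, against 13.7%, 27.1% and 29.4% of all tested genes. With the code-series fit 5 rose and 0 fell in mixed against basal, 4 rose and 1 fell in luminal against basal, and 0 passed in mixed against luminal aggregates. Elf5, the alveolar transcription factor, averaged 168 CPM in mixed, 149 CPM in luminal and 25.9 CPM in basal aggregates (mixed minus basal 2.70 ± 0.17, adjusted p = 6.92e-06; luminal minus basal 2.53 ± 0.17, adjusted p = 1.18e-06). Elf5 is also a marker of luminal progenitors, in which its RNA is high. Stat5a, the transcription factor that prolactin activates, was plotted after its values were seen and averaged 143 ± 19.3 CPM in mixed, 251 ± 72.0 CPM in luminal and 50.1 ± 18.9 CPM in basal aggregates. Socs2, a feedback inhibitor of cytokine receptors, rose in mixed relative to luminal aggregates (1.49 ± 0.23, adjusted p = 0.00109) and fell in luminal relative to basal aggregates (-1.80 ± 0.24, adjusted p = 0.000151). Socs3, of the same family, fell in mixed relative to luminal aggregates (-1.27 ± 0.31, adjusted p = 0.0121). The mixed against luminal calls of both ended in the code-series fit (adjusted p = 0.219 for Socs2 and 1 for Socs3). The milk protein gene Wap had 0 counts in all basal libraries and averaged 2.86 CPM in mixed and 0.905 CPM in luminal aggregates, and no fold is given for it.

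**Figure D4:**
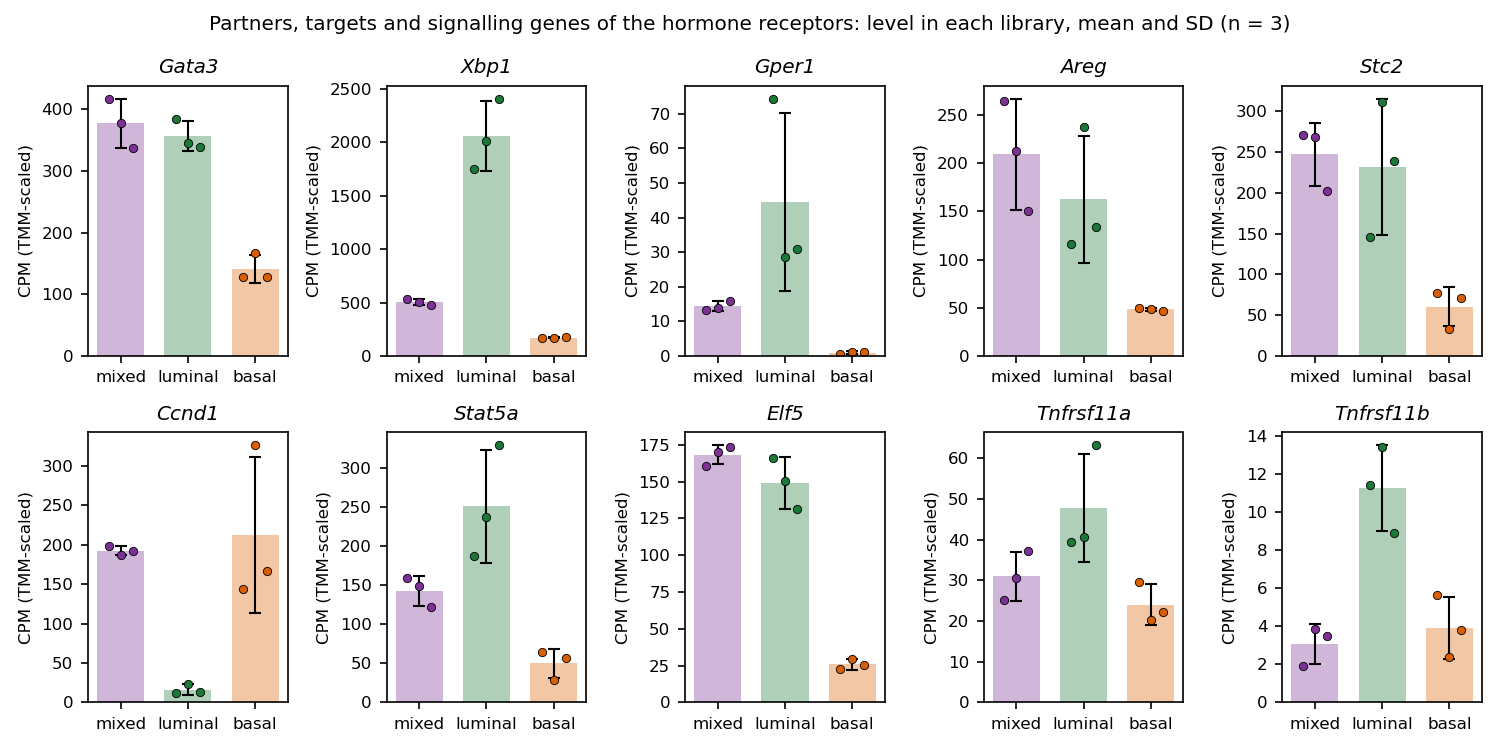
Expression in CPM (y axis of each panel, from 0) of 10 pathway genes in mixed, luminal and basal aggregates, with points for libraries, bars for means and error bars for SD (n = 3). Areg, Stc2, Gata3 and Elf5 are high in mixed and luminal libraries, Xbp1 and Gper1 are highest in luminal libraries, and Ccnd1 is low in luminal libraries.

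Markers of other cells that carry some of these RNAs were low and moved in part with the groups. Immune markers summed to between 43.6 and 66.4 CPM in mixed, between 22.3 and 53.0 CPM in luminal and between 4.03 and 47.5 CPM in basal aggregates, the highest basal value being that of basal 2, and 2 of 4 tested markers rose and 1 fell in mixed relative to luminal aggregates (0 passed in the code-series fit). Fibroblast markers summed to 15.9 to 38.0 CPM in mixed, 6.53 to 10.4 CPM in luminal and 21.6 to 29.1 CPM in basal aggregates, with Col1a2 at 0 in luminal, and 2 of 5 tested markers were higher in mixed than in luminal aggregates (1 in the code-series fit). Of all tested genes, 29.4% were called in mixed against luminal aggregates. Endothelial markers, whose cells also carry Ly6a, reached at most 7.08 CPM in sum in any library. Ptprc, the pan-leukocyte gene, reached at most 0.744 CPM. In mixed, luminal and basal aggregates, Lyz2 averaged 18.4, 0.0613 and 5.23 CPM and Cd74 averaged 29.8, 0.758 and 9.95 CPM. Cd68 averaged 5.67, 32.0 and 3.10 CPM in the same order. Adipocyte markers summed to at most 1.32 CPM in mixed, 0.702 CPM in luminal and 0.386 CPM in basal aggregates, with Adipoq at 0 in mixed aggregates. Their part in the values above was not tested.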

How the data were processed

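RNA of 9 libraries of mouse mammary aggregates (3 mixed, 3 luminal, 3 basal) was analysed from the authors' deposited table of raw counts per gene name. Per the submitters' processing notes and the file headers, reads were trimmed with Trim Galore, aligned with Subread to mm39 and counted by featureCounts 2.0.1 as read pairs in exons under each gene name. The counting ignored strand and left out multi-mapping reads, so overlapping genes and close gene families are uncertain. The annotation release is not given in the sources used here.

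The analysis used edgeR 4.0.16 (with limma 3.58.1, in R 4.3.3): filterByExpr over the 3 groups, TMM scaling, 1 fit of all 9 libraries (6 residual degrees of freedom), the robust quasi-likelihood test (two-sided) of 3 contrasts and Benjamini-Hochberg adjustment over 18051 genes at a threshold of 0.05. CPM carry no pseudocount, and log2 differences are given with their SE. Depth limits genes near the floor of 3 counts per library, and this covers counting error only. The tests were first run on simulated data. Alternatives were DESeq2 1.42.0, library-size scaling, no filter, a code series term, a replicate block and leaving out each library.

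The members and lists were chosen with earlier results of these data known. All members are named. From each list, up to 2 highest and 2 lowest called genes averaging 1 CPM or more are named per contrast, or a selection of these, and exceptions are stated. A gene that this rule names is not reported here. Genes most alike were the 3 nearest genes averaging 10 CPM or more, by mean absolute difference of centred log2 CPM (prior count 2). Coordinates come from the exon positions of the count table, and promoter sequences from RefSeq (GRCm38.p6).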

Additional observations from a re-analysis of the deposited data

How the results depend on the processing

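Over 17 settings, of which 9 leave out a library, no called difference of a member turned its sign, 449 comparisons kept their side of the threshold, 5 lost and 5 gained a call. Among differences without a call, signs turned for Ly6a in mixed minus luminal (0.61) and Foxa1 in luminal minus basal (-0.42) in the code-series fit, for Esr1 (-0.10) and Prlr (-0.12) in mixed minus luminal without luminal 1, and, within 0.01 of 0, for Esr1 without mixed 2 and Foxa1 without luminal 3. Members lower in mixed than in luminal aggregates numbered 1, but 2 with no filter and 0 in the code-series fit. Leaving out a library gave 5 to 7 members higher in mixed and 6 to 7 higher in luminal than in basal aggregates. Over all genes, the counts that rose and fell were 2749 and 2560 in mixed against luminal, 1153 and 1324 in mixed against basal, and 2304 and 2595 in luminal against basal aggregates. In the code-series fit these were 370 and 121, 529 and 324, and 1280 and 1227. Genes lower in mixed than in basal aggregates numbered 2340 by DESeq2 and 2190 with no filter. Leaving out a library gave 1550 (without luminal 3) to 3400 genes higher and 1417 to 3374 lower in mixed than in luminal, with 1623 and 1620 without luminal 1. In mixed against basal aggregates it gave 558 to 2627 higher and 405 to 2493 lower, the lowest without basal 3 and the highest without basal 2, with 706 and 470 without basal 1, and 865 and 838 lower without mixed 2 and mixed 3. In luminal against basal aggregates it gave 1642 to 2533 higher and 1907 to 2860 lower. The cause was not tested.

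Scaling by library size moved the median of all genes to -0.06, -0.22 and -0.17 in mixed minus luminal, mixed minus basal and luminal minus basal, and the share of calls that were higher to 33.6% from 46.5% in mixed against basal and to 35% from 47% in luminal against basal aggregates. In the code-series fit that share was 62.0% and 75.4% in mixed against basal and mixed against luminal aggregates. Libraries of different groups with the same title number did not deviate together (r from -0.166 to 0.201). The replicate block by title number called 1119 genes up and 1008 down in mixed against basal aggregates and changed no call of a member. The column names number some basal and luminal libraries otherwise, and a pairing by those numbers was not tested. Genes near 3 counts per library, such as Tnfsf11, cannot be compared at this depth.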

Other observations

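Ly6a lies in a cluster of related genes, of which 5 of 8 other members listed were tested. In luminal relative to basal aggregates 4 of the 5 rose (median log2 difference 1.17 against -0.02 over all tested genes). In mixed relative to basal aggregates 2 of the 5 rose (0.94 against -0.07). Of all tested genes, 12.8% were higher in luminal and 6.39% higher in mixed than in basal aggregates. Ly6d, a luminal and keratinocyte surface gene, averaged 1373 ± 122 CPM in mixed, 2027 ± 700 CPM in luminal and 714 ± 207 CPM in basal aggregates (SD, n = 3 each). It was higher in luminal than in basal aggregates by a log2 difference of 1.505 (adjusted p = 0.0014, edgeR's quasi-likelihood test), and by 0.94 in mixed than in basal (adjusted p = 0.0376), and the call of mixed against basal ended in the code-series fit (adjusted p = 0.446). In that fit 0 of the 5 passed in mixed against basal, and 2 of the 5 rose in luminal relative to basal aggregates.

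Ly6a is also known as an interferon-induced gene, and the other listed interferon-induced genes were not of a single order. Ifitm3, which encodes a membrane protein that restricts viral entry, averaged 1173 ± 227 CPM in mixed, 84.2 ± 23.9 CPM in luminal and 1282 ± 425 CPM in basal aggregates. It was higher in mixed than in luminal (log2 difference 3.801, adjusted p = 1.17e-05) and fell in luminal relative to basal aggregates (-3.93, adjusted p = 4.08e-06). Gbp2, an interferon-induced GTPase gene, averaged 30.4 ± 7.45 CPM in mixed, 26.0 ± 1.66 CPM in luminal and 10.2 ± 5.44 CPM in basal aggregates. It rose in mixed relative to basal (1.58, adjusted p = 0.0209) and in luminal relative to basal aggregates (1.36, adjusted p = 0.0215), and the call of luminal against basal ended in the code-series fit (adjusted p = 0.136). Of the 9 genes listed, 1 rose and 2 fell in luminal relative to basal aggregates, and 3 rose in mixed relative to luminal aggregates. The share called was 33.3% in each, against 27.1% and 29.4% of all tested genes. In the code-series fit 0 rose and 1 fell in luminal against basal, and 1 rose in mixed against luminal aggregates.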
